A study of Mus musculus with 128 samples.

Results

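The genes followed here are 10 genes of brown and white fat cells, chosen by name from the 55285 gene symbols that each of 8 mouse tissue tables lists. They are Ucp1, Elovl3 and Cidea, known from brown fat, Adipoq, Lep and Retn, which encode hormones secreted by fat cells, and Plin1, Cidec, Fabp4 and Car3, which encode proteins of fat storage or of the fat cell cytoplasm. All 10 have a row in every table. The samples are messenger RNA libraries of brain, lung, liver, kidney, heart, aorta, skin and gastrocnemius (called muscle below). The mice were untreated males of the C57BL/6J strain, wild type by label, aged 6, 15, 24 or 30 months, and 4 libraries represent each age in each tissue, 16 per tissue. For the aorta the sample titles give the age, and sex and strain come from the statement of design for the series. The labels do not say whether the 4 libraries of a group came from separate animals, so the p-values measure the spread between these libraries.

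Brown fat cells burn fuel to make heat: Ucp1, the uncoupling protein, lets protons leak back across the inner mitochondrial membrane, and Elovl3 elongates long-chain fatty acids in the same cells. White fat cells store triglyceride in a single large droplet, coated by Plin1, a perilipin that guards it from lipases, and enlarged by Cidec, while Cidea has a similar role in the many droplets of brown fat. Adipoq (adiponectin) and Lep (leptin) report on fat stores to other organs, and Retn (resistin) is a further secreted protein of mouse fat. Fabp4 carries fatty acids in fat cells and is also made by capillary endothelium and macrophages, and Car3, a carbonic anhydrase, is abundant in fat, skeletal muscle and liver. Elovl3 and Cidea are made in sebaceous glands of the skin too. Mouse aorta is normally wrapped in fat that resembles brown fat, and skin carries a layer of white fat cells in the dermis. In bulk tissue, fewer cells of a type and less RNA per cell cannot be told apart.

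RefSeq promoter sequences on GRCm38.p6 were matched for 6 of the 10 genes by symbol. The 250 bases before the annotated start are shown for Ucp1, high in the aorta and at or near 0 in most other libraries, for Adipoq and Retn, which varied together across aorta and skin libraries, and for Lep, which in the aorta followed neither. They lie on the plus strand at chr8:83290098-83290347, chr16:23146286-23146535, chr8:3655520-3655769 and chr6:29059971-29060220. Capitals mark exact matches on either strand to 5 motifs: the C/EBP palindrome TTGCGCAA, the PPAR direct repeat (AGGTCA given again after 1 base N), the CCAAT box, and the TATA forms TATAAA and TATATA.
Ucp1: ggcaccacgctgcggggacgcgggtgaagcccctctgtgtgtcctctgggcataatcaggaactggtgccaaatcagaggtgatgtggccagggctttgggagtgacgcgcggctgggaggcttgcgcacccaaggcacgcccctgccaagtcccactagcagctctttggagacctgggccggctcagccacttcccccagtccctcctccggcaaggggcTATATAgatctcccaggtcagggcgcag
Adipoq: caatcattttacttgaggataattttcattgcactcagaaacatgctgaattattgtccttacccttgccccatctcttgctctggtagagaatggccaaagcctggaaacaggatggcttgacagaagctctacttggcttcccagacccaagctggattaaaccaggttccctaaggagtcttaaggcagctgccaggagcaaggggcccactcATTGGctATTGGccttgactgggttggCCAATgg
Retn: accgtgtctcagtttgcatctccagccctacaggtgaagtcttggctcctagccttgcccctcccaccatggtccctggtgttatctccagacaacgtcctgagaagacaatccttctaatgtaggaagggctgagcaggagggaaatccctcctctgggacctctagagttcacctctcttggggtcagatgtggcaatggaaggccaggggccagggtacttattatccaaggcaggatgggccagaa
Lep: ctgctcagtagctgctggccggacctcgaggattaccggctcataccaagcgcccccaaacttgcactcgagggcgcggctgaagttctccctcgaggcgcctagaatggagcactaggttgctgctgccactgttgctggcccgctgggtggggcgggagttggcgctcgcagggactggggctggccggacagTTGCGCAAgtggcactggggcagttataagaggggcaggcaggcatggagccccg
In Lep the C/EBP palindrome lies 55 to 48 bases before the start, a motif found in 0.164% of the 32851 RefSeq promoters of the same length. Adipoq holds 3 CCAAT boxes in the last 34 bases, at 34 to 30, 27 to 23 and 7 to 3 bases before the start, the first and second of them on the minus strand. A CCAAT box is present in 33.8% of promoters. Ucp1 has the form TATATA at 28 to 23 bases before its start, present in 5.25% of promoters. TATAAA is present in 12.4% and the PPAR repeat in 0.0335%, and neither has a match in the 4 windows shown. A match is a description of letters and not of a bound site.

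Libraries held from 7647585 to 82801330 reads. Values within a tissue are normalised read counts, and levels set across tissues are RPM, reads scaled to a library total of 1000000, because each tissue table was normalised by itself. The 10 genes together took 1.90% to 2.82% of all reads in aorta libraries, against 0.0998% to 0.316% in skin, 0.151% to 0.306% in muscle, 0.0371% to 0.0721% in heart and 0.00645% to 0.566% in liver. Tissue labels were checked on defining markers. Summed cardiomyocyte markers were 23600 to 31690 RPM in heart, skeletal fibre markers 105800 to 123400 RPM in muscle and keratinocyte markers 6643 to 22780 RPM in skin. Aorta libraries held 2001 to 4881 RPM of smooth muscle markers, and also 2.70 to 1900 RPM of cardiomyocyte markers.

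Fat genes were highest in the aorta and next highest in the skin for 7 of the 10 genes by median level, Elovl3, Car3 and Ucp1 being the exceptions to that order. Adipoq had a median of 1010 RPM in aorta (736 to 1512 over 16 libraries), 61.5 RPM in skin (29.4 to 163), 13.97 RPM in muscle (7.09 to 20.8), 9.28 RPM in lung (2.94 to 16.6) and 2.61 RPM in kidney (0.594 to 7.96). The aorta and skin ranges did not meet, and those of skin and muscle did not meet either, whereas muscle overlapped lung and lung overlapped kidney. In heart the median was 0.535 RPM, with a highest library of 9.58 RPM, so that most heart libraries held less Adipoq than lung or kidney libraries. Liver and brain held next to none: Adipoq was at 0 in 13 of 16 libraries of each.

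Plin1, the droplet coat, followed the same order at the top, with medians of 1024 RPM in aorta, 36.5 RPM in skin, 10.1 RPM in lung and 9.79 RPM in muscle, the last pair overlapping fully. Lep had a median of 68.3 RPM in aorta (25.7 to 173) and 31.3 RPM in skin (6.55 to 90.0), ranges that overlapped, so leptin was the secreted product for which aorta and skin lay closest. In liver Lep was at 0 in all 16 libraries. Retn had medians of 141 RPM in aorta, 23.3 RPM in skin and 2.89 RPM in muscle.

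The aorta was the tissue of Ucp1. Its median there was 3356 RPM (1550 to 5850), and the highest value in any library of another tissue was 20.1 RPM, in heart. In muscle Ucp1 was at 0 in 15 of 16 libraries and in skin at 0 in 7 of 16, with no skin library above 0.215 RPM. Elovl3, its companion in brown fat, had another order: the skin was highest with a median of 195 RPM (139 to 259), the liver next with 47.8 RPM (0.737 to 215) and the aorta after it with 17.7 RPM (2.55 to 115). Cidea was highest in aorta (median 1519 RPM) and skin (158 RPM), and heart held a steady 14.4 RPM (13.05 to 22.9) with almost no Adipoq.

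Car3 and Fabp4 reached far beyond the tissues with Adipoq. Median Car3 was 7327 RPM in aorta, 2792 RPM in liver, 1547 RPM in muscle and 690 RPM in skin. Fabp4 had medians of 7451 RPM in aorta, 560 RPM in skin, 413 RPM in heart and 212 RPM in muscle, and its heart range of 354 to 607 RPM lay inside the skin range of 201 to 994 RPM.

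**Figure D1:**
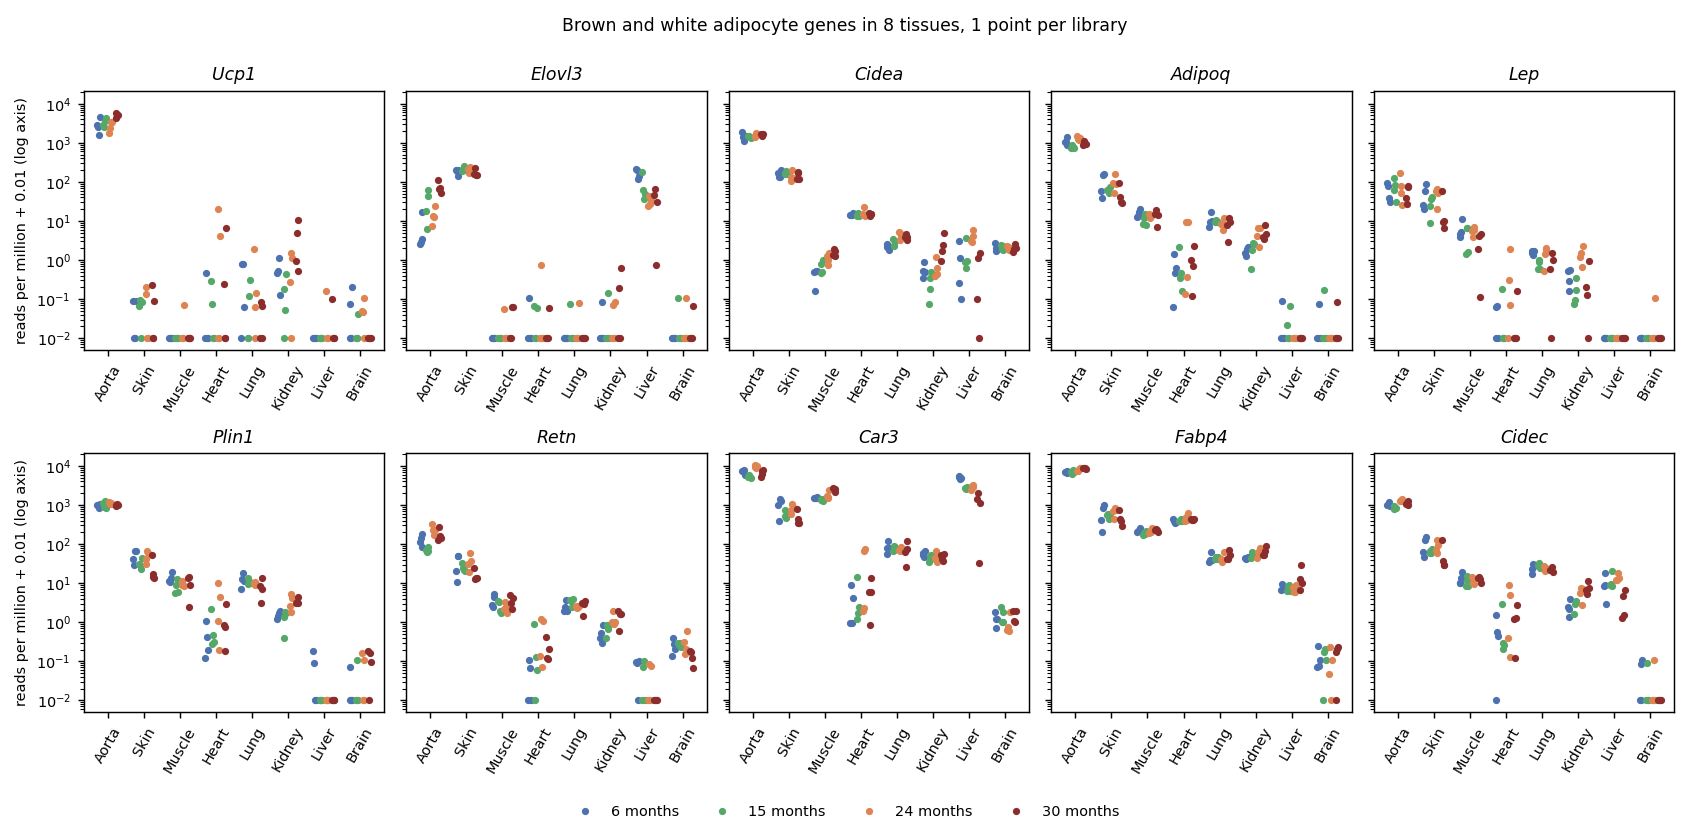
Level of each of the 10 genes in every library, in RPM plus 0.01 on a log axis, by tissue along the horizontal axis and with age by colour (1 point per library, 16 per tissue). Adipoq steps down from aorta (median 1010 RPM) over skin (61.5 RPM) to muscle (13.97 RPM), whereas Ucp1 is high in aorta (median 3356 RPM) and at or near 0 in most other libraries.

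Ratios of 2 members within a library do not depend on normalisation and separate the tissues further. They were taken where Adipoq had 10 or more normalised reads, a limit chosen after the values were seen. Per read of Adipoq there were 5.69 to 8.39 reads of Car3 in the 16 aorta libraries, 5.94 to 8.46 in the 8 heart libraries that qualified, 6.83 to 11.7 in lung and 6.76 to 16.4 in skin. The ranges of these 4 tissues overlapped although their Adipoq levels differ by orders of magnitude. Skin ran higher, with a median of 9.6 against 6.87 in aorta. The heart range leaves out the libraries below the limit. Among these, 6-month replicate 1 had 16.3 normalised reads of Car3 beside 0.958 of Adipoq, and 6-month replicate 3 had 17.1 beside 8.04. Muscle had 75.2 to 297 reads of Car3 per read of Adipoq and kidney 4.57 to 57.0. Ucp1 gave the opposite picture, with 1.096 to 6.62 reads per read of Adipoq in aorta, at most 0.00265 in skin and at most 0.00422 in muscle. In heart and kidney this ratio ran from 0 to 2.87 and from 0 to 2.40, so single libraries of these tissues reached the aorta range. Lep per read of Adipoq was 0.0192 to 0.176 in aorta and 0.146 to 0.689 in skin.

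The change with age in the aorta was tested with limma-trend on log2(normalised count + 1) over all 16 libraries, with Benjamini-Hochberg adjustment over the 14980 genes tested and 0.05 as the threshold, and log2 changes are on that scale. Elovl3 rose and Retn rose, each in part of the comparisons, and the other 8 genes did not pass the test in any of them. All 10 genes passed the filter on low counts. The comparisons with 6 months share their 6-month libraries.

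Elovl3 stood at 42.4, 51.3, 55.8 and 309.6 normalised reads in the 6-month libraries, at 310.2, 116.1, 749.9 and 1144 at 15 months, at 120.4, 220.8, 223.0 and 417.4 at 24 months, and at 2017, 1115, 1209 and 863 at 30 months. Every 30-month library lay above every 6-month library, the 15-month libraries overlapped both, and the 24-month libraries overlapped those of 6 months and lay below those of 30 months. At 30 against 6 months the gene rose by a log2 change of 3.96 ± 0.67 (SE), adjusted p = 0.0046, and it passed in all 8 fits that left out 1 library. None of the other 9 genes passed in that comparison, in which 5.67% of all tested genes passed and 3.08% rose. At 15 against 6 months the log2 change was 2.40 ± 0.67 with adjusted p = 0.14. Without 6-month replicate 4 that comparison gave 3.06 with adjusted p = 0.035, and without 15-month replicate 2 it gave 3.02 with adjusted p = 0.034. At 24 against 6 months it was 1.49 ± 0.67 with adjusted p = 0.20, and 2.15 with adjusted p = 0.045 without 6-month replicate 4.

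Ucp1 was 47591, 43974, 25250 and 81101 normalised reads at 6 months, 47813, 49159, 65517 and 78168 at 15 months, 29459, 39082, 58426 and 56436 at 24 months, and 102753, 69646, 86797 and 89073 at 30 months. Of the 30-month libraries, 3 lay above every younger library and replicate 2 did not. The log2 change at 30 against 6 months was 0.92 ± 0.30 (SE), with adjusted p = 0.077 in limma-trend and 0.040 in DESeq2, and without 6-month replicate 4 it was 1.20 with adjusted p = 0.017. Cidea, the droplet protein of brown fat, ranged from 17872 to 31295 normalised reads with overlapping ages, and its log2 changes were between 0.06 and 0.15 in the 4 comparisons made.

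Retn was 1898, 2433, 2985 and 1469.5 normalised reads at 6 months, 1213, 1211, 1446 and 1193 at 15 months, 5392, 3706, 2914 and 3872 at 24 months, and 2277, 4580, 2787 and 2382 at 30 months. The 15-month libraries were the 4 lowest of all 16. At 30 against 15 months, where 6.28% of genes passed and 2.99% rose, Retn rose by a log2 change of 1.19 ± 0.23 with adjusted p = 0.0081, and none of the other 9 genes passed. It passed again in each of the 8 fits that left out 1 library. At 24 against 6 months, where 5.81% of genes passed and 2.8% rose, it rose by 0.87 ± 0.23 with adjusted p = 0.041, again alone among the 10. That call was lost in 6 of the 8 fits without 1 library (adjusted p up to 0.11), namely when any of replicates 1, 2 and 4 of either age was left out. The log2 change over the 8 fits was 0.69 to 1.03.

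Adipoq had its lowest mean at 15 months (12675, 16709, 13405 and 13768 normalised reads) and its highest at 24 months (25034, 21201, 20601 and 22595), and these groups did not overlap. At 6 months it was 17695, 18602, 23042 and 15752, and at 30 months 15511, 18491, 15561 and 16133. None of its changes passed: the log2 change was -0.40 ± 0.12 at 15 against 6 months (adjusted p = 0.17), 0.26 ± 0.12 at 24 against 6 months (adjusted p = 0.20) and -0.18 ± 0.12 at 30 against 6 months (adjusted p = 0.38). Car3 had the same shape, with 90511 to 113797 normalised reads at 15 months and 149886 to 173308 at 24 months. The 24-month Car3 libraries all lay above the 6-month libraries (102287 to 131185), with a log2 change of 0.44 ± 0.15 and adjusted p = 0.10 (0.0097 in DESeq2).

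Cidec at 24 months (20683 to 24048) also lay wholly above 6 months (16679 to 19711), with a log2 change of 0.31 ± 0.10 and adjusted p = 0.070 (0.015 in DESeq2, and 0.045 without 6-month replicate 3). At 30 against 15 months Cidec gave 0.31 ± 0.10 with adjusted p = 0.072, and it passed in DESeq2 (0.017) and without 15-month replicate 2 (0.037). Fabp4 at 30 months (137274 to 154095) lay above 6 months (109030 to 129686), with 0.28 ± 0.13 and adjusted p = 0.21 (0.013 in DESeq2). Plin1 ran from 13539 to 21840 and Lep from 435 to 2857 over all 16 libraries, with the groups overlapping in each of the 4 comparisons. At 15 against 6 months none of the 10 genes passed in limma-trend, where 0.0868% of all genes did. Unadjusted p was under 0.05 for 4 of the 10 (Elovl3, Adipoq, Retn and Cidec), edgeR called 0, and DESeq2 called 2, Adipoq and Retn, both lower. Percentages of all genes, here and in the other tissues, are limma-trend calls at adjusted p. They give no background for counts at unadjusted p or for calls by edgeR or DESeq2.

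**Figure D2:**
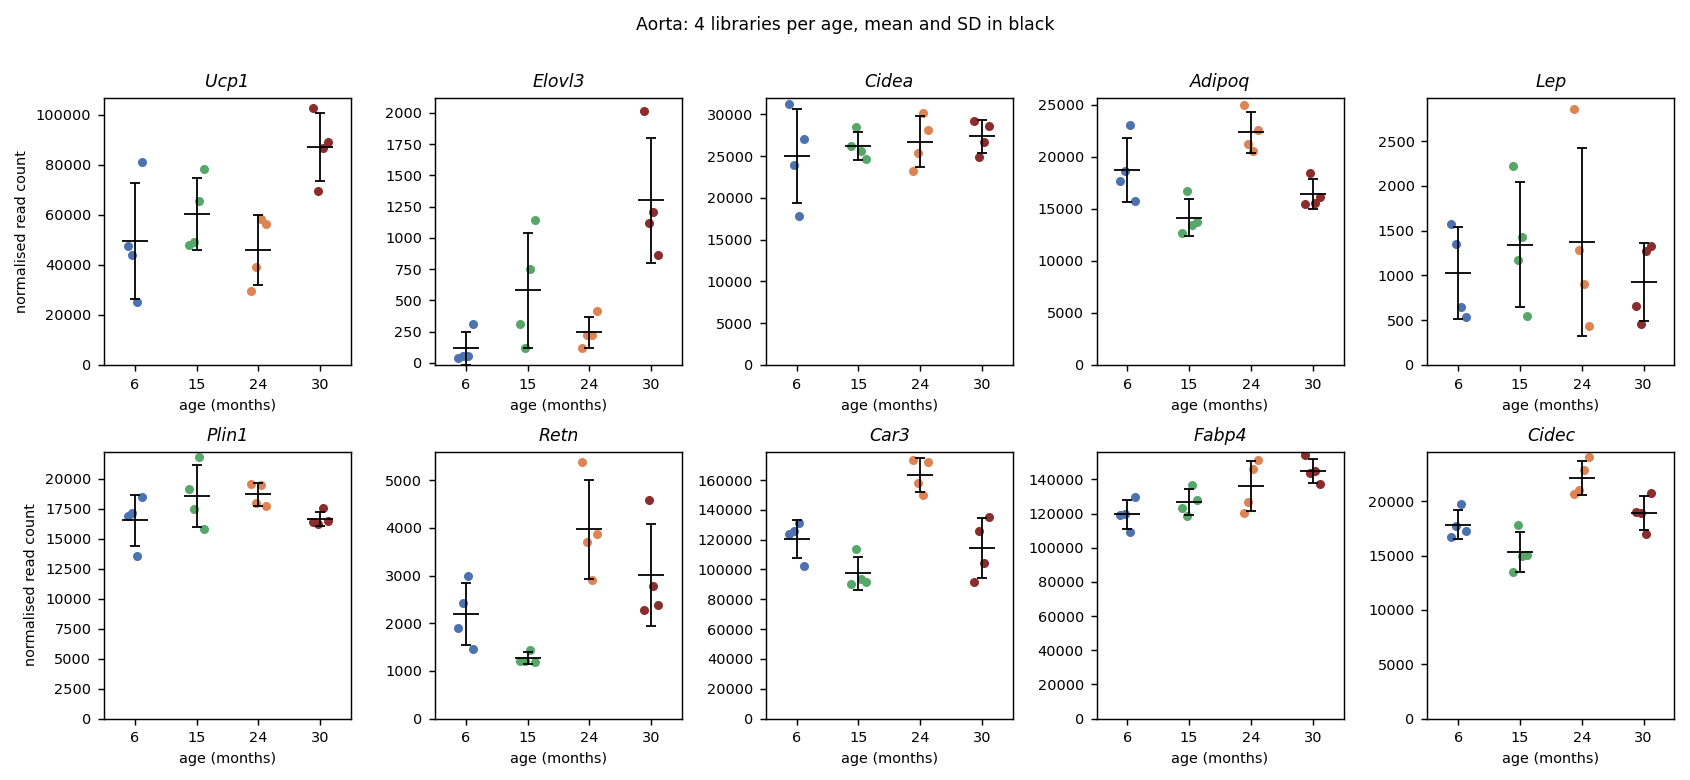
Normalised read count of each of the 10 genes in the aorta against age in months, with 1 point for each of 4 libraries per age and the mean and SD in black. Elovl3 at 30 months (863 to 2017) lies above every 6-month library (42.4 to 309.6), and Adipoq, Retn, Car3 and Cidec have their lowest mean at 15 months and their highest at 24 months.

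Across the 16 aorta libraries the genes showed 2 patterns. On log2(count + 1), Pearson r with Adipoq was 0.912 for Car3, 0.823 for Cidec and 0.819 for Retn, and r with Ucp1 was 0.815 for Elovl3, 0.75 for Fabp4 and 0.598 for Cidea. Ucp1 and Adipoq ran against each other, with r = -0.64. Lep followed neither, with r = -0.0591 to Adipoq and -0.374 to Ucp1, and Plin1 had r of -0.201 and 0.095. Among 11251 genes ranked, those most like Adipoq were Chst1 (r = 0.957), Rnpc3 (0.953), Cfd (0.944), the gene of the fat cell protease adipsin, Acat3 (0.935), Rpsa (0.931) and Podn (0.929). The genes most like Ucp1 were Slc25a20 (0.945), which carries acylcarnitines into mitochondria, Letmd1 (0.93), Ppif (0.92), Decr1 (0.917), an enzyme of unsaturated fatty acid oxidation, Uqcrfs1 (0.916), a subunit of respiratory complex III, and Letm1 (0.915). These are descriptions over 16 libraries that share age groups and normalisation.

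The ratio of Ucp1 to Adipoq within a library was 3.77 to 6.62 at 30 months and 1.18 to 2.84 at 24 months, groups that did not overlap, and it was 1.096 to 5.15 at 6 months and 2.94 to 5.68 at 15 months. Elovl3 per read of Ucp1 was 0.00968 to 0.0196 at 30 months and 0.000892 to 0.00382 at 6 months. Retn per read of Adipoq was 0.0725 to 0.108 at 15 months and 0.147 to 0.248 at 30 months.

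In the wider gene lists of fat biology named here, most members did not pass. At 30 against 6 months 3.08% of all tested genes rose and 388 of 14980 fell. There 3 of 19 tested genes of triglyceride synthesis and lipid uptake rose and none fell: Elovl6 (log2 change 1.53, adjusted p = 0.027), a fatty acid elongase, Agpat2 (0.98, 0.030) and Thrsp (0.74, 0.035). The median change of that list was 0.40, beside 0.01 over all genes. Of the thermogenic list 3 of 19 tested genes rose (Elovl3, Acot11 with 1.62, and Letmd1 with 0.60) and 1 fell (Ppara, chosen after its value was seen, -0.40), with a median of 0.34. Of 14 genes of adipocyte transcription and identity 1 rose and 2 fell, the latter Sncg (-1.09, 0.012) and Cebpb (-1.30, 0.028), a C/EBP transcription factor of early fat cell differentiation. At 30 against 15 months Retn was joined in the adipokine list by Cfd (1.15, 0.022) and Nampt (0.41, 0.041). So 3 of 10 tested members rose and none fell, where 2.99% of all genes rose. At 24 against 6 months, where 2.8% of all genes rose, 3 of 10 rose as well: Nampt (0.57, 0.011), Retn and Nrg4 (0.38, 0.049). These p-values are from limma-trend with Benjamini-Hochberg adjustment.

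Beside these changes, summed cardiomyocyte markers in the aorta had medians of 37.3, 163, 102 and 725 RPM at 6, 15, 24 and 30 months, with single libraries at 1900 RPM (6-month replicate 3) and 1193 RPM (30-month replicate 3). Of 7 listed cardiomyocyte markers 6 were tested, and limma-trend called 0 of them at 30 against 6, 30 against 15 and 24 against 6 months, with unadjusted p under 0.05 for 0 of 6 in each. Mesothelium markers summed to 47.2 to 75.2 RPM at 6 months and 16.3 to 49.95 RPM at 30 months, and 2 of 5 fell, beside 388 of all 14980 tested genes. Smooth muscle markers summed to 2867 to 4865 RPM at 6 months, 2001 to 3693 RPM at 15 months, 2101 to 3669 RPM at 24 months and 2798 to 4881 RPM at 30 months. None of the 6 was called in these 3 comparisons by limma-trend, with unadjusted p under 0.05 for 0 of 6 at 30 against 6, 1 of 6 at 30 against 15 and 2 of 6 at 24 against 6 months. The part of these other tissues in the changes of Elovl3 and Retn was not tested.

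In heart, most libraries held little of the fat genes, which were high in 24-month replicates 2 and 4. Adipoq was 0.958, 23.4, 8.04 and 10.4 normalised reads at 6 months, 37.1, 5.73, 7.55 and 2.59 at 15 months, 2.08, 157.5, 6.53 and 170.9 at 24 months, and 14.4, 1.92, 11.7 and 35.6 at 30 months. Car3 was 1063 and 1396 in 24-month replicates 2 and 4, and 14.4 to 247.2 in the other 14 heart libraries. Plin1 was 166.2 and 80.6 in those replicates, and Cidec 151.3 and 95.2, against at most 46.7 and 49.8 elsewhere.

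The 2 libraries were not alike in their brown fat genes. Ucp1 was 330.0 in 24-month replicate 2 and 78.1 in replicate 4, while Lep was 4.96 and 36.6, so the ratio of Ucp1 to Adipoq was 2.09 in replicate 2 and 0.457 in replicate 4. In 30-month replicate 4, Ucp1 was 102.2 beside 35.6 for Adipoq, a ratio of 2.87. Elovl3 was 12.4 in 24-month replicate 2 and at most 1.67 in every other heart library. The 24-month replicate 4 library also had the lowest sum of cardiomyocyte markers in the heart, 23600 RPM. It was lowest too for skeletal fibre markers (645 RPM) and, without the members, for 2 fat lists. These were lipid droplet and lipolysis (415 RPM) and adipocyte transcription and identity (182.5 RPM). Its sum of other adipokines and secreted factors was the highest in the heart, 276.2 RPM. So this library differed from the rest in more than the fat genes.

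Of the 10 genes, 6 passed the filter on low counts in heart, and none of the 6 passed in limma-trend, edgeR or DESeq2 in any of the 4 comparisons. Over all 14301 genes, 0.587% passed at 15 against 6 months, 4.92% at 24 against 6, 5.15% at 30 against 6 and 0.182% at 30 against 15. Unadjusted p was under 0.05 for 2 of 6 (Plin1 and Fabp4) at 24 against 6 months and for 0 of 6 in the other 3. The log2 change at 24 against 6 months was 2.30 ± 1.02 for Plin1 (adjusted p = 0.20), 2.31 ± 1.23 for Car3 (0.26) and 1.75 ± 1.22 for Adipoq (0.38), from 2 high and 2 low libraries. Without those 2 high libraries, a setting chosen after seeing the data, the same changes were 0.44 for Plin1, -0.21 for Car3 and -0.80 for Adipoq, and again none passed. Cidea and Fabp4 kept to another pattern. Cidea was 222.3 to 266.7 in 15 of 16 libraries and 375.9 in 24-month replicate 2, and Fabp4 was 6262 to 7922 in 15 libraries and 11332 in 24-month replicate 4.

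**Figure D3:**
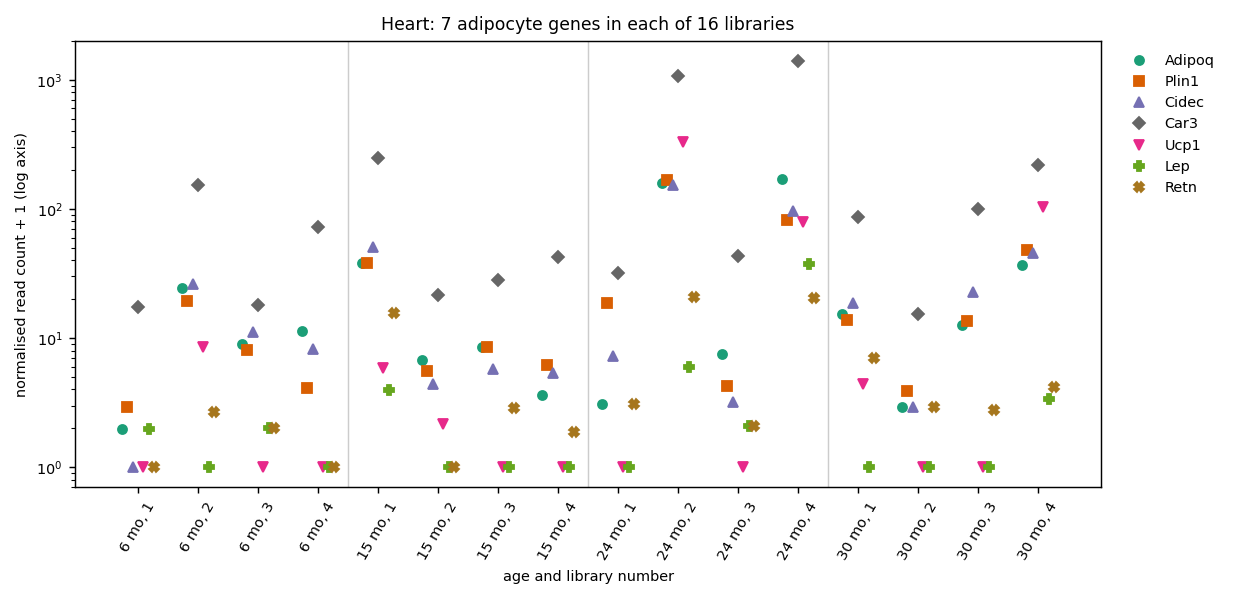
Normalised read count plus 1, on a log axis, of 7 of the genes in each of the 16 heart libraries, ordered by age and library number. The 24-month libraries 2 and 4 stand above the rest for Adipoq (157.5 and 170.9) and Car3 (1063 and 1396), and Ucp1 is highest in 24-month library 2 (330.0).

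With Adipoq in heart, r over the 16 libraries was 0.946 for Car3, 0.939 for Cidec and 0.881 for Plin1, and 0.496 for Cidea and 0.493 for Fabp4. The genes most like Adipoq of 10362 ranked were Cfd (0.943), Cyp2e1 (0.924), Cdo1 (0.862), Scd1 (0.856), a fatty acid desaturase, Cfap418 (0.81) and Sdc4 (0.799). These values include the 2 high libraries.

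Muscle showed a rise of Cidea and Car3 with age, while the hormones and the droplet coat did not pass. Of the 10 genes 8 passed the low-count filter, Ucp1 and Elovl3 being at or near 0. Cidea was low throughout: 8.85, 2.78, 9.13 and 9.02 normalised reads at 6 months, 8.93, 14.8, 8.95 and 18.1 at 15 months, 22.4, 17.8, 13.5 and 26.8 at 24 months, and 23.6, 31.9, 29.1 and 22.6 at 30 months. All 24-month and 30-month libraries lay above all 6-month libraries. At 30 against 6 months Cidea rose by a log2 change of 1.81 ± 0.34 (SE), adjusted p = 0.0031, and passed in all 8 fits without 1 library. Its 6-month libraries, with at most 0.510 RPM, lay under the level of the low-count filter. Cidea was thus tested through the older groups, in which it was higher. At 24 against 6 months it rose by 1.39 ± 0.34 (adjusted p = 0.046) and at 30 against 15 months by 1.07 ± 0.34 (adjusted p = 0.046). Both of these calls were lost in 7 of the 8 fits without 1 library. The first was kept when 24-month replicate 3 was left out and the second when 15-month replicate 4 was, and adjusted p reached 0.15 and 0.12.

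Car3 had a very tight 6-month group of 27656, 27596, 27740 and 27614 normalised reads, then 25179, 25723, 25675 and 23861 at 15 months, 30927, 28266, 27169 and 42943 at 24 months, and 48076, 42485, 35564 and 45233 at 30 months. The 30-month libraries lay above every 6-month and 15-month library. It rose by a log2 change of 0.62 ± 0.12 at 30 against 6 months (adjusted p = 0.0031) and by 0.76 ± 0.12 at 30 against 15 months (adjusted p = 0.00092), in all 8 fits without 1 library for each. Thus 2 of 8 tested genes rose in each of these comparisons, where 13.1% and 13.4% of all genes passed and 6.15% and 6.16% rose, and 1 of 8 at 24 against 6 months, where 1.77% passed and 1.16% rose. At 15 against 6 months 0.604% of genes passed and none of the 8, in limma-trend, edgeR or DESeq2, with unadjusted p under 0.05 for 3 of 8 (Cidea, Adipoq and Fabp4).

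Adipoq in muscle was 119.7 to 367.1 normalised reads with overlapping ages, and its log2 change at 30 against 6 months was -0.34 ± 0.25 (adjusted p = 0.41). Lep gave -1.93 ± 0.81 (adjusted p = 0.13), with 71.7, 87.1, 93.6 and 193.0 reads at 6 months and 32.5, 71.0, 1.76 and 82.4 at 30 months. Plin1 gave -0.78 ± 0.42 (adjusted p = 0.24). Without 30-month replicate 3 the log2 change was -0.83 for Lep (adjusted p = 0.34), -0.20 for Plin1 (0.69) and -0.04 for Adipoq (0.94). The library of 30-month replicate 3 was the lowest of all 16 for these 3 genes, with Plin1 at 41.4 and Adipoq at 119.7. In the same library the other genes of the lipid droplet list summed to 1832 RPM, against 658 to 932 RPM in the other 15. The median log2 change of the 8 tested genes at 30 against 6 months was -0.10, beside 0.0042 over all genes.

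Plin1 and Lep tracked Adipoq in muscle (r = 0.93 and 0.822 over 16 libraries), and Car3 and Cidea did not (0.203 and -0.163). The genes most like Adipoq were Lamb2 (0.876), Adgra2 (0.849), Nnat (0.847), Prkar2b (0.828), Glb1l2 (0.825) and Sgsh (0.825). In the wider lists, 3 of 8 genes of white adipocyte precursors fell at 30 against 6 months, where 6.92% of all genes fell: Pi16 (log2 change -0.98, adjusted p = 0.034), Dlk1 (-0.82, 0.040) and Cd34 (-0.57, 0.040), with a list median of -0.34. Lepr, the leptin receptor, rose by 0.77 (adjusted p = 0.020), as the 1 of 6 adipokine receptors to pass in limma-trend. At 30 against 6 months 6.15% of all genes rose. Macrophage markers rose in 4 of 6 genes, with sums of 135 to 181 RPM at 6 months and 218 to 331 RPM at 30 months, and cardiomyocyte markers in 2 of 4 tested genes, with sums of 642 to 1069 RPM and 849 to 1710 RPM. Their part in the rise of Cidea and Car3 was not tested.

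In skin, libraries of 1 age differed widely, and none of the genes passed. Adipoq was 820.0, 537.9, 2223 and 2392 normalised reads at 6 months, 901.1, 948.4, 863.9 and 998.0 at 15 months, 1295, 643.6, 2215 and 1185 at 24 months, and 1199, 582.8, 434.4 and 399.6 at 30 months. The 15-month libraries agreed closely, the 6-month group split into 2 low and 2 high libraries, and at 30 months replicate 1 lay apart above the other 3. Lep followed with 356.0, 282.1, 883.0 and 1325 at 6 months and 749.9, 138.1, 141.4 and 89.0 at 30 months. Plin1 was 583.0, 407.2, 1012 and 989.9 at 6 months and 696.3, 253.2, 199.97 and 179.1 at 30 months.

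At 30 against 6 months the estimate was below 0 for all 9 tested genes, with a median log2 change of -0.99 beside 0.00079 over all genes. The values were -1.62 ± 0.67 for Lep (adjusted p = 0.30), -1.31 ± 0.39 for Plin1 (0.14), -1.07 ± 0.46 for Adipoq (0.32), -1.06 ± 0.37 for Car3 (0.20), -0.99 ± 0.44 for Cidec (0.34) and -0.84 ± 0.44 for Retn (0.45). Nearer 0 were Fabp4 with -0.28 ± 0.42 (0.84), Elovl3 with -0.16 ± 0.19 (0.80) and Cidea with -0.15 ± 0.23 (0.85). The share of all genes with an estimate below 0 is not given here. None of the 9 passed in limma-trend, where 0.72% of all genes did at adjusted p. Unadjusted p was under 0.05 for 5 of 9, a count with no share of all genes beside it. These 5, Adipoq, Lep, Plin1, Car3 and Cidec, varied together across the libraries. Called genes numbered 0 in edgeR and 1 in DESeq2, Car3, with a log2 change of -1.16 and adjusted p = 0.028. Plin1 passed without 30-month replicate 1 (-1.74, adjusted p = 0.031) and Car3 without 6-month replicate 2 (-1.49, adjusted p = 0.018). In the other 3 comparisons none of the 9 genes passed in limma-trend, edgeR or DESeq2, with unadjusted p under 0.05 for 0, 0 and 1 of 9 (Elovl3 at 30 against 15 months). There 0.173% of genes passed at 15 against 6 months, 1.84% at 24 against 6 and 3.15% at 30 against 15.

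Elovl3 and Cidea had a pattern of their own in skin. Elovl3 was 2023 to 4191 and Cidea 1298 to 3161 normalised reads over the 16 libraries, and r with Adipoq was 0.233 and 0.281. The other 6 tested genes had r with Adipoq of 0.879 (Lep) to 0.964 (Cidec). Among those most like Adipoq of 12592 genes were Abcd2 (0.966), Cfd (0.961), Prkar2b (0.96), Slc7a10 (0.944) and Lpl (0.938), the lipoprotein lipase that frees fatty acids for uptake. The sebaceous gland list, without the members, summed to 5530 to 9662 RPM. It summed to 7648 to 50870 RPM in aorta and 2907 to 13580 RPM in liver, so a high sum is not particular to skin.

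Libraries of skin also differed in other tissues' markers, and these moved with the fat genes in part. Hepatocyte markers summed to 62.5, 304, 923 and 16.5 RPM in the 6-month libraries and to 4.96 to 13.4 RPM at 30 months, and 1 of 5 of them, Alb, fell (log2 change -5.07, adjusted p = 0.038). The 6-month library richest in Adipoq, replicate 4, had the lowest of these 4 sums. Skeletal fibre markers summed to 10070, 3265, 8849 and 7268 RPM in the 6-month libraries and to 9027, 4922, 2557 and 1811 RPM at 30 months, where they had the same order as Adipoq. Macrophage markers summed to 210.0, 117.9, 552.6 and 459.9 RPM at 6 months, low in the libraries low in Adipoq, and to 380.9, 261.7, 239.9 and 267.7 RPM at 30 months. The median log2 change at 30 against 6 months was -0.85 over the 8 fibre markers and -0.05 over the 6 macrophage markers. Keratinocyte markers summed to 22780 RPM in 6-month replicate 2, the 6-month library lowest in Adipoq, and to 8668 to 13570 RPM in the other 3. Their part in the skin values was not tested.

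**Figure D4:**
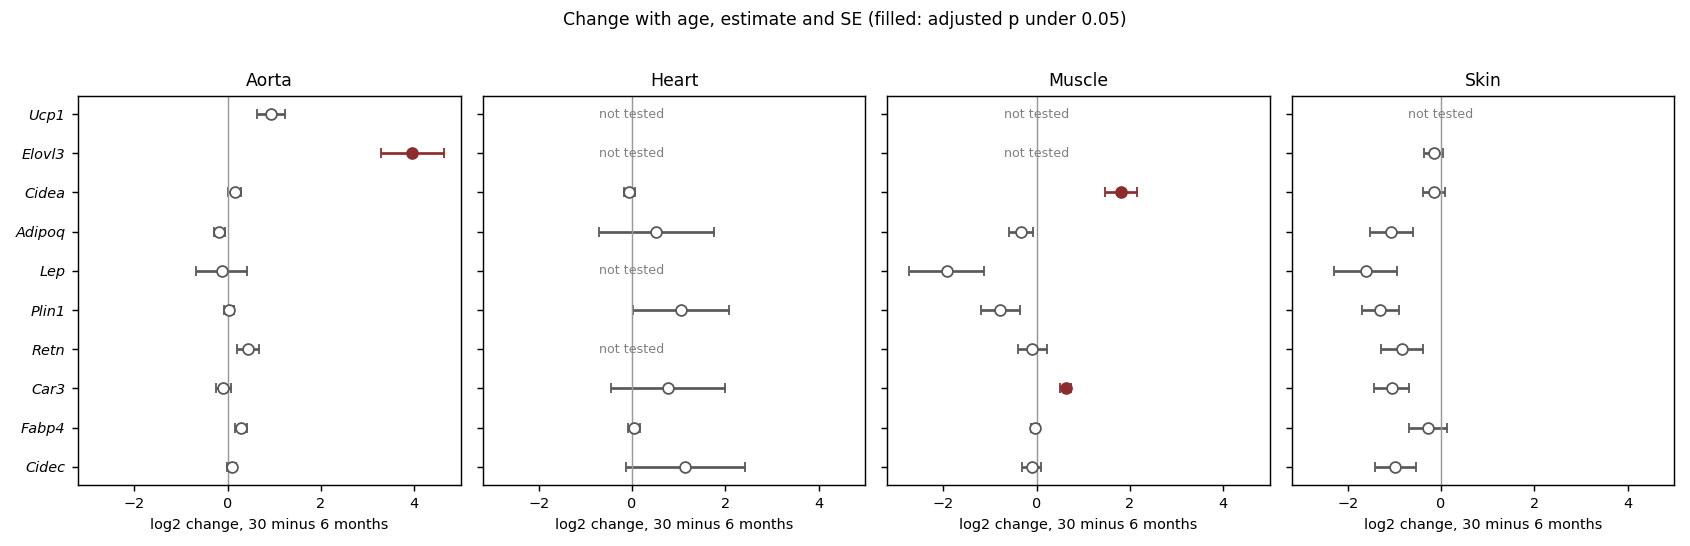
Log2 change at 30 against 6 months of the 10 genes in aorta, heart, muscle and skin, with points for the estimate, bars for its standard error and filled points for adjusted p under 0.05. Elovl3 in aorta (3.96) and Cidea (1.81) and Car3 (0.62) in muscle are the filled points. In skin all 9 tested genes lie below 0, from -1.62 for Lep to -0.15 for Cidea, and none is filled.

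Whether the change at 30 against 6 months differed between aorta, heart, muscle and skin was tested with an F test on the interaction of tissue and age in limma-trend, over 64 libraries and 18576 genes, of which 8.84% passed. Cidea (adjusted p = 2.83e-05) and Elovl3 (adjusted p = 0.00025) passed, 2 of the 10 genes. The Cidea changes were 0.15 in aorta, -0.06 in heart, 1.81 in muscle and -0.15 in skin, all but the muscle value near 0. That muscle value is set against 6-month libraries with at most 0.510 RPM, under the level of the low-count filter in muscle. Elovl3 gave 3.96 in aorta and -0.16 in skin, and it was at or near 0 in heart and muscle, where a change could not be measured. Its F test over 4 tissues therefore compares tissues with and without the transcript. Between aorta and skin alone, a comparison chosen after seeing the data, the changes of Elovl3 differed with adjusted p = 0.0028. Of 17708 genes 1.98% passed there, and none of the other 9 did. For Adipoq, with -0.18, 0.52, -0.34 and -1.07 in the same order, the adjusted p was 0.74, and for Plin1 it was 0.25.

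In kidney Cidec, Adipoq, Retn and Cidea rose at 30 against 6 months. Adipoq was 24.9, 21.3, 34.3 and 36.4 normalised reads at 6 months and 59.1, 54.2, 115.9 and 70.6 at 30 months, with no overlap. Cidec was 40.3, 36.4, 24.1 and 64.8 at 6 months and 102.0, 80.4, 168.0 and 120.0 at 30 months, also without overlap. Cidea was 5.76, 8.78, 15.2 and 8.10 at 6 months and 14.3, 27.1, 35.7 and 75.8 at 30 months, and Retn was 6.71, 8.78, 5.08 and 14.2 at 6 months and 30.6, 9.35, 23.2 and 25.3 at 30 months, and both overlapped. Cidec rose by a log2 change of 1.52 ± 0.34 (adjusted p = 0.0036), Adipoq by 1.30 ± 0.42 (0.028), Retn by 1.22 ± 0.39 (0.027) and Cidea by 1.74 ± 0.52 (0.020). These are 4 of 9 tested genes, in a tissue where 28.3% of all genes passed and 14.1% rose. At 6 months Cidea (0.339 to 0.870 RPM) and Retn (0.290 to 0.847 RPM) lay around the level of the low-count filter. Both were thus tested largely through older libraries, in which they were higher. The Cidec call held in all 8 fits without 1 library (adjusted p at most 0.016).

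The other 3 calls in kidney depended on single libraries. Cidea was lost without 6-month replicate 1 or 30-month replicate 4, Adipoq without 6-month replicates 1 or 2 or 30-month replicate 3, and Retn without 6-month replicates 1 or 3 or 30-month replicates 1, 3 or 4, with adjusted p up to 0.085. Without 30-month replicates 3 and 4 together, a setting chosen after seeing the data, 0 of 9 passed and the log2 change of Cidec was 1.20 with adjusted p = 0.051. Ucp1 was 14.3, 75.7, 7.72 and 169.5 reads at 30 months and 2.02 to 19.0 at 6 months, with a log2 change of 2.10 ± 1.04 (adjusted p = 0.14). In 30-month replicate 4 there were 2.40 reads of Ucp1 per read of Adipoq and in replicate 3 there were 0.0667. Lep was 2.51 to 9.11 reads at 6 months, 10.2 to 34.8 at 24 months, and 3.06, 1.87, 0 and 14.7 at 30 months, with a log2 change of -0.88 ± 0.68 at 30 against 6 months (adjusted p = 0.36). Car3 gave -0.45 ± 0.19 (adjusted p = 0.086), with -0.31 (0.24) without 30-month replicate 3 and -0.56 (0.046) without replicate 4, and it passed in 1 of the 8 fits without 1 library. Plin1 passed in edgeR (adjusted p = 0.044) and DESeq2 (0.022), Ucp1 in edgeR (0.030) and Fabp4 in DESeq2 (0.036).

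At 30 against 15 months 5 of 9 genes rose in kidney, where 19.3% of all genes passed and 9.3% rose: Ucp1, Cidea, Adipoq, Plin1 and Cidec. The 15-month libraries held 1.13, 2.88, 5.70 and 8.25 normalised reads of Cidea, 27.0, 48.9, 55.6 and 57.7 of Cidec, 6.75, 23.0, 29.9 and 28.4 of Plin1, 10.1, 31.6, 44.9 and 42.2 of Adipoq and 0, 2.88, 0.713 and 7.33 of Ucp1. With at most 0.490 RPM of Cidea and 0.435 RPM of Ucp1 they lay under the level of the low-count filter. These 2 genes were thus tested through libraries of other ages, in which they were higher. For each of the 5 genes, which are the called ones, all 30-month libraries lay above all 15-month libraries. The share of all kidney genes that separate in this way is not given here, so the separation adds no support to the calls. The log2 change was 2.80 ± 0.52 for Cidea (adjusted p = 0.0023), 1.30 ± 0.34 for Cidec (0.014) and 1.41 ± 0.38 for Plin1 (0.018), and these passed in all 8 fits without 1 library. For Ucp1 it was 3.74 ± 1.04 (0.020) and for Adipoq 1.32 ± 0.42 (0.035), and each of these calls was lost in 4 of the 8 fits. Ucp1 was lost without 15-month replicates 1 or 3 or 30-month replicates 2 or 4 (adjusted p up to 0.066), and Adipoq without 15-month replicates 1 or 2 or 30-month replicates 3 or 4 (up to 0.10). Retn passed without 30-month replicate 2 (1.18, 0.036). Without 30-month replicates 3 and 4 together 1 of 9 passed.

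None of the 9 kidney genes passed at 24 against 6 months in limma-trend, where 10.6% of all genes did. Unadjusted p was under 0.05 for 5 of 9 (Adipoq, Lep, Plin1, Retn and Cidec), edgeR called 2 and DESeq2 called 3. Cidec gave 1.08 ± 0.34 (adjusted p = 0.051) and Adipoq 1.26 ± 0.42 (0.061). Cidec passed without 6-month replicate 4 (0.028), and both passed without 24-month replicate 3 (0.018 and 0.030). At 15 against 6 months 0 of 9 passed in limma-trend, edgeR or DESeq2, with unadjusted p under 0.05 for 0 of 9, where 0.48% of all genes passed.

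Among the kidney lists at 30 against 6 months 6 of 10 tested adipokines and secreted factors rose and none fell, led by Sfrp5 (log2 change 1.92, adjusted p = 0.00024), Cfd (1.80, 0.00055) and Rbp4 (1.41, 0.025), with a median of 0.98 beside 0.00085 over all genes. Of all kidney genes 14.1% rose in that comparison. The adipokine list includes Retn, so its count and median are not separate from the calls among the 10 genes. Macrophage markers rose in 5 of 6 genes, with sums of 84.7 to 101 RPM at 6 months and 207 to 516 RPM at 30 months, and mesothelium markers in 2 of 4 tested genes (15.7 to 19.0 and 20.7 to 33.2 RPM). At 15 months these sums were 108.4 to 124.3 RPM and 17.2 to 18.3 RPM. At 30 against 15 months, where 9.3% of all genes rose, 5 of 6 macrophage and 2 of 4 mesothelium markers rose. Their part in the rise of the fat genes was not tested.

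In liver Elovl3, Car3 and Cidec fell at 30 against 6 months. Elovl3 was 4570, 4103, 2579 and 3131 normalised reads at 6 months and 874, 1218, 11.9 and 629 at 30 months. Car3 was 115157, 111392, 96831 and 109076 at 6 months, 55334 to 63888 at 15 months, 47655 to 69831 at 24 months, and 27893, 36673, 531 and 24079 at 30 months. The 30-month libraries lay below the 6-month libraries in both genes, and replicate 3 lay far below the rest. Elovl3 fell by 3.52 ± 1.0 on the log2 scale (adjusted p = 0.017) and Car3 fell by 3.33 ± 0.90 (adjusted p = 0.013), both in all 8 fits without 1 library. Without 30-month replicate 3 the log2 changes were -2.003 for Elovl3 (adjusted p = 0.0028) and -1.89 for Car3 (3.453e-06). Cidec fell by 1.69 ± 0.55 (adjusted p = 0.033), a call lost in 5 of the 8 fits (adjusted p up to 0.11), those without 6-month replicates 1, 2 or 3 and 30-month replicates 1 or 3. So 3 of 5 tested genes fell, where 24.9% of all genes passed and 11% fell. Fabp4 gave 0.50 with adjusted p = 0.23, and it ran from 0.16 without 30-month replicate 3 (adjusted p = 0.67) to 0.80 without replicate 1 (0.029), the latter the 1 of 8 fits in which it passed.

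At 30 against 15 months Cidec fell in liver by 2.14 ± 0.55 on the log2 scale (adjusted p = 0.016), from 183.3, 195.2, 442.4 and 191.6 normalised reads to 25.0, 86.6, 25.2 and 137.1, with no overlap. It passed in all 8 fits without 1 library, the 1 of 5 tested genes called, where 17.2% of all genes passed and 8.1% fell. Car3 gave -2.44 ± 0.90 (adjusted p = 0.071), and -0.999 (0.0013) without 30-month replicate 3, and it passed also without 30-month replicates 2 (-3.03, 0.048) or 4 (-2.83, 0.047). Fabp4 passed without 30-month replicate 1 (0.87, 0.030). At 24 against 6 months, where 11.6% of all genes passed, 0 of 5 passed in limma-trend, with unadjusted p under 0.05 for 2 of 5 (Elovl3 and Cidea). There edgeR and DESeq2 each called 1, Elovl3, lower (adjusted p = 0.034 and 0.020). At 15 against 6 months 0 of 5 passed in limma-trend, edgeR or DESeq2, with unadjusted p under 0.05 for 0 of 5, where 1.23% of all genes passed.

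Adipoq, Lep and Plin1 were at or near 0 in liver. At 30 against 6 months, in the lipid droplet and lipolysis list, 7 of 14 tested genes fell and none rose, with G0s2 (-2.19, adjusted p = 0.0013), an inhibitor of triglyceride lipase, Abhd5 (-0.56, 0.0015), its co-activator, and Fitm2 (-0.91, 0.0022) first. The list's median was -0.63 beside -0.02 over all genes, of which 11% fell. Cfd fell by 5.83 (adjusted p = 0.00026) in limma-trend, Adipor2, an adiponectin receptor, fell by 0.94 (0.0022), and 4 of 5 tested genes of white adipocyte precursors rose, led by Pdgfra (1.16, 0.0014), where 13.8% of all genes rose. Macrophage markers rose in 6 of 6 genes, with sums of 192.6 to 265.7 RPM at 6 months, 230.8 to 316.5 RPM at 15 months and 385.9 to 1355 RPM at 30 months. Hepatocyte markers summed to 80590 to 93350 RPM at 6 months and 96350 to 143900 RPM at 30 months, and 1 of 5 fell. Their part in the liver values was not tested.

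Lung and brain complete the set. In lung Cidea was 35.5, 40.9, 37.0 and 29.4 normalised reads at 6 months and 64.9, 76.3, 64.6 and 56.2 at 30 months, without overlap. It rose by a log2 change of 0.86 ± 0.18 (adjusted p = 0.0037) and passed in all 8 fits without 1 library, the 1 of 8 tested genes to do so, where 19.4% of all genes passed and 10.7% rose. Adipoq in lung was 114.7, 151.5, 277.8 and 164.9 at 6 months and 128.9, 48.4, 205.5 and 155.0 at 30 months, with a log2 change of -0.50 ± 0.35 (adjusted p = 0.36). Lep gave -1.65 ± 0.73 (0.13) and Plin1 -0.65 ± 0.34 (0.20). Single 30-month libraries moved these values. Without replicate 2 they were -0.07 for Adipoq (0.90), -0.63 for Lep (0.33) and -0.25 for Plin1 (0.57). Without replicate 3 they were -0.76 (0.14), -2.19 (0.041) and -0.97 (0.037), and that was the 1 of 8 fits in which Lep and Plin1 passed.

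Cidea in lung rose also at 24 against 6 months, by 0.93 ± 0.18 (adjusted p = 0.0032), to 83.0, 78.3, 54.1 and 62.8 normalised reads, again the 1 of 8 tested genes, and it passed in all 8 fits without 1 library. In that comparison 15.1% of all genes passed and 8.91% rose. At 15 against 6 and 30 against 15 months 0 of 8 passed in limma-trend, edgeR or DESeq2, with unadjusted p under 0.05 for 0 and for 2 of 8 (Cidea and Cidec), where 1.63% and 8.69% of all genes passed. Macrophage markers in lung rose in 4 of 6 genes at both 24 and 30 against 6 months, with sums of 5179 to 5923 RPM at 6 months, 6770 to 9268 RPM at 24 months and 5433 to 6806 RPM at 30 months. Their part in the rise of Cidea was not tested.
In brain 2 genes were tested, Cidea (27.3 to 47.2 reads) and Car3 (10.1 to 41.0 reads). Neither passed in limma-trend, edgeR or DESeq2 in any of the 4 comparisons, with unadjusted p under 0.05 for 0 of 2 in each. Of all genes 0.0247% passed at 15 against 6 months, 0.667% at 24 against 6, 7.5% at 30 against 6 and 7.31% at 30 against 15.

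**Figure D5:**
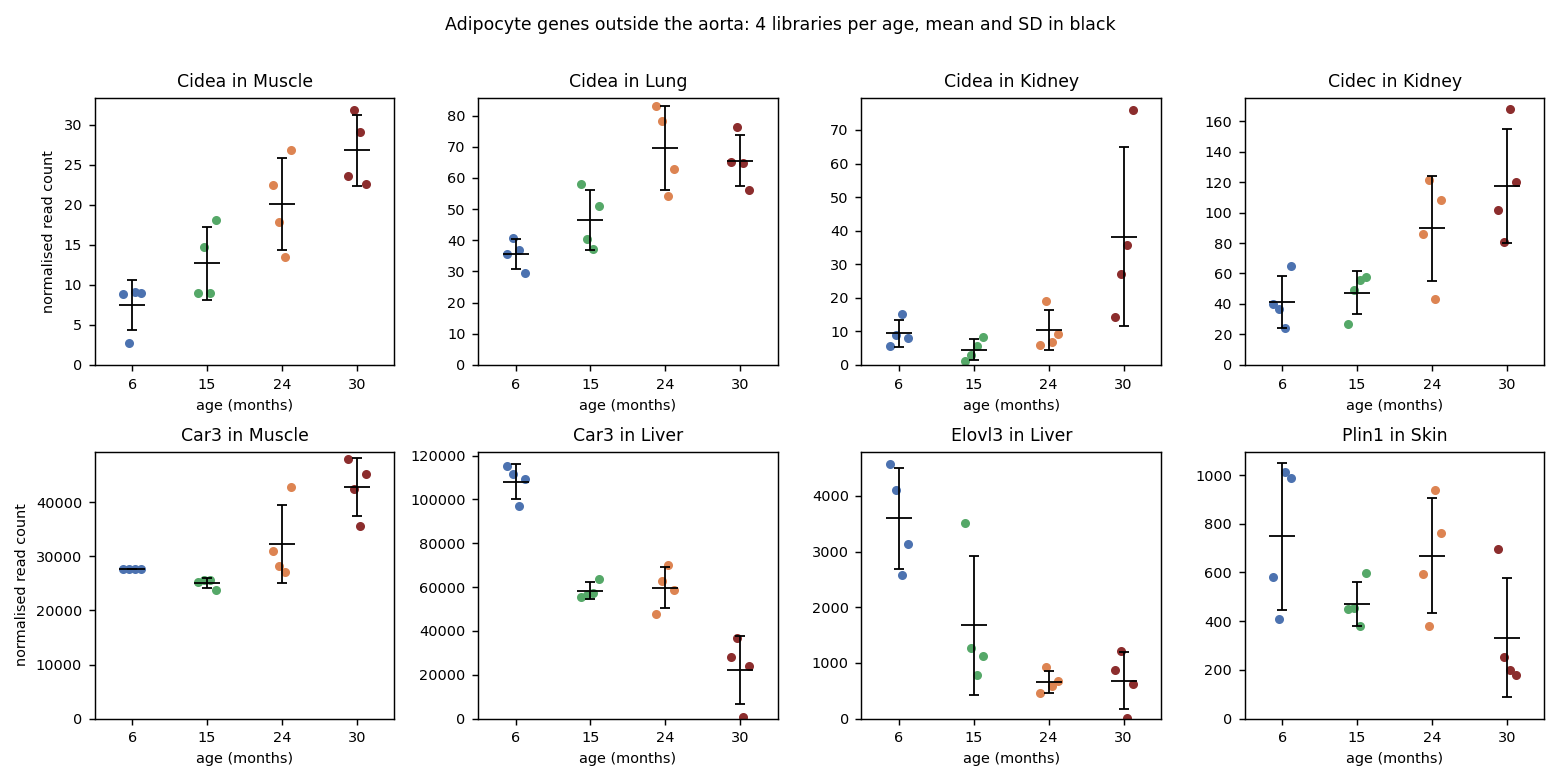
Normalised read count against age in months for 8 pairs of gene and tissue outside the aorta, with 1 point for each of 4 libraries per age and the mean and SD in black. Cidea is higher at 30 than at 6 months in muscle (22.6 to 31.9 against 2.78 to 9.13) and lung (56.2 to 76.3 against 29.4 to 40.9), Car3 is higher in muscle and lower in liver, and Plin1 in skin overlaps between ages.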

How the data were processed

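Per the labels' protocols, RNAiso Plus served for extraction and Illumina Stranded mRNA Prep for library construction. The submitters' processing notes name FastQC, STAR, RSEM, DESeq2 and GRCm39. Which gene annotation was used is not given in the sources. The deposited values are a signal, gene read counts that the authors divided by a size factor within each tissue table. The low values stepped in whole reads: 100% of values came out whole within 0.01 reads, and the largest deviation was 0.0016 reads. In 3 columns the size factor was so close to 1 that the values were near whole as deposited. Recovered reads gave the depth, 7647585 to 82801330 reads per library, and RPM.

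The 10 genes and the wider lists were chosen with earlier results of these data known. Counts and medians of the wider lists include members of the 10 where a list holds them, as with Retn and Elovl3. Each tissue was fitted with limma 3.58.1 (limma-trend, 1 mean per age, 16 libraries, log2 of the deposited value plus 1) in R 4.3.3, on genes that passed filterByExpr of edgeR with a minimum count of 10 recovered reads. Contrasts were two-sided, with Benjamini-Hochberg adjustment over all tested genes of the tissue and a threshold of 0.05. Fold changes on this scale understate the change of low genes. The script was tested on simulated data with known changes. Alternatives were edgeR 4.0.16 and DESeq2 1.42.0 on recovered reads, pseudocounts of 0.1 and 5, no filter, a replicate block and leaving out each library. The comparisons were 15, 24 and 30 against 6 months and 30 against 15 months in each tissue. In brain, kidney, liver and lung those other than 30 against 6 months, and the test of aorta against skin, were added after seeing the data.

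The named genes are all 10, at most 3 genes of each wider list, those of lowest adjusted p in the direction with more calls, the marker lists, and the 6 genes with the highest r to Adipoq (and, in aorta, to Ucp1) among tested genes with a mean of at least 50 recovered reads, leaving out Gm and Rik symbols; 1 gene that this rule names is not reported here. Promoters came from RefSeq on GRCm38.p6, and no coordinates were carried between builds.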

Additional observations from a re-analysis of the deposited data

Results flagged for a closer look

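In 222 groups of 4 libraries with a mean of at least 10 normalised reads, 1 library lay apart from the other 3 in 16 (gap over range above Dixon's 95% critical value). Chance gives about 1 in 20 groups. In aorta these were Elovl3 at 6 months (309.6 against 42.4 to 55.8 in the other 3), Retn at 15 months (1446 against 1193 to 1213) and Car3 at 15 months (113797 against 90511 to 93803). In liver they were Elovl3 at 30 months (11.93 against 629 to 1218) and Car3 at 30 months (531.4 against 24079 to 36673), both low in replicate 3, and Cidec at 15 months (442.4 against 183 to 195). In heart they were Cidea at 24 months (375.9 against 251 to 261), Cidec at 15 months (49.84 against 3.44 to 4.72), and Fabp4 at 6 months (7922 against 6268 to 6381), at 15 months (7020 against 6720 to 6751) and, low, at 30 months (6441 against 6938 to 7032). In skin Elovl3 at 30 months (3272 against 2023 to 2105) and Retn at 30 months (320 against 178 to 191) stood apart in different libraries, replicates 2 and 1. The others were Adipoq in lung at 15 months (183.6 against 154 to 157), Plin1 in muscle at 24 months (205.9 against 151 to 157) and Retn in kidney at 24 months (31.51 against 13.6 to 15.5).

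The change at 30 against 6 months differed between aorta, heart, muscle and skin for Cidea (adjusted p = 2.83e-05 by limma's F test of the interaction) and Elovl3 (adjusted p = 0.00025). Elovl3 was at or near 0 in heart and muscle, so its value compares tissues with and without the transcript, and between aorta and skin alone the adjusted p was 0.0028. Cidea in muscle had at most 0.510 RPM at 6 months, under the level of the low-count filter in that tissue.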

How the results depend on the processing

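Over 228 results for single genes there were 3270 values under other settings, of which 61 lost a call, 46 gained one and none reversed a call. For the 23 called results, none of 331 values changed sign. DESeq2 called 2, 3, 3 and 2 of the 10 genes in aorta at 15, 24 and 30 against 6 and 30 against 15 months, and 1 in skin at 30 against 6 months. The shares of all genes called by DESeq2 or edgeR are not given here, so their counts have no background beside them. Without the low-count filter 0 genes were called in aorta at 24 against 6 months. In muscle a pseudocount of 0.1, no filter and the replicate block each gave 0 at 24 against 6 months and 1 at 30 against 15 months. In kidney at 24 against 6 months the block gave 1 call, edgeR 2 and DESeq2 3, against 0 by limma-trend, and in liver at 24 against 6 months edgeR and DESeq2 each gave 1 against 0. The block changed no other count of calls by over 1.5 times. Same-numbered libraries deviated together at most weakly. Outside skin their median correlation was 0.011 to 0.051 per tissue, beside -0.032 to -0.011 for other pairs. In skin it was -0.063 beside 0.016. In each tissue 0 to 2 of 16 libraries correlated best with their own number. Leaving out 1 library gave 0 to 1, 0 to 2, 1 to 2 and 1 to 2 calls in the 4 aorta comparisons, 0 to 1 and 1 to 2 in muscle at 24 against 6 and 30 against 15 months, 0 to 1 in skin at 30 against 6 months, 2 to 3 for the interaction, and in kidney, lung and liver 1 to 4, 1 to 3 and 2 to 3 at 30 against 6 months. It gave 0 to 2 in kidney at 24 against 6, 3 to 5 in kidney and 1 to 2 in liver at 30 against 15 months. It gave a constant count in the other comparisons. Without 30-month replicates 3 and 4 of kidney, chosen after seeing the data, 3, 0 and 1 were called at 24 against 6, 30 against 6 and 30 against 15 months. The interaction called 1 with a pseudocount of 0.1 and 1 in aorta and skin only. The cause was not tested. Low counts limit Cidea in muscle and kidney, Lep outside aorta and skin, and most fat genes in heart, where single libraries set the values.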
